A study of Drosophila melanogaster with 4 samples.

Results

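The regions described here are H3K4me3 peaks of fly embryos that stand at the edge of a long stretch without any peak. They were chosen by the measured spacing of the list itself: a peak counts as a desert-border peak where the distance to the next peak, on at least 1 side, is 100 kb or more on the same chromosome arm. Such a gap is called a desert here, which means only that the authors' peak caller reported no peak in it. Of the 6715 peaks on the arms 2L, 2R, 3L, 3R, 4 and X, 515 met the rule, and the whole list with its unplaced sequences holds 7425. The 515 peaks border 273 deserts. Since the gaps, the widths and the scores come from the same peak call, everything below is a description without a test.

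The list comes from Drosophila melanogaster embryos aged 8 to 16 h, for which the labels name 2 H3K4me3 ChIP libraries (ChIP-seq, sequencing of DNA bound to histone H3 trimethylated at lysine 4) and 2 input DNA libraries. All 4 libraries share the strain written Y cn bw sp, so no genotype is compared. The genotype gives y[1] and oc[R3.2] first, then Gr22b[1] with Gr22d[1], the eye colour and body markers cn[1], bw[1] and sp[1] together with CG33964[R4.2], and after these LysC[1] and lab[R4.2], followed by MstProx[1] and GstD5[1] and lastly Rh6[1]. Chromatin was fixed with 1.8% formaldehyde for 15 min. The single peak list has no column for a library, so it carries no replicate error, and read depth is unknown. Whole embryos were used, so a low score cannot separate a mark in few cells from a weak mark in many.

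Lysine 4 of histone H3 is methylated, to differing degrees, by SET domain methyltransferases of the COMPASS family, in flies Set1, Trithorax and Trithorax-related. The trimethylated form, H3K4me3, collects on the first nucleosomes of transcribed genes. Promoters that are silent in a tissue mostly lack it. In flies, genes silent in most cells often lie together in long domains, and sequence near the centromeres is largely packed as heterochromatin, which is marked by methylation of another lysine of H3.

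Deserts were few among the gaps and long in total. They made up 4.07% of all gaps between neighbouring arm peaks and 36.9% of the span between the outermost peaks of the arms, or 44.3 Mb of 120 Mb. Their median length was 146744 bp, with quartiles of 117568 and 190119 bp. Of the 273 deserts, 146 were under 150 kb, 57 reached 200 kb and 12 reached 300 kb. Of all arm peaks, 7.67% stood beside one.

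As a share of the span X had the most desert and 2R the least among the 5 large arms, while 3R had the most deserts and the most desert sequence, 10.5 Mb against 10.1 Mb on X. On X, 59 deserts took up 44.9% of the span, and 112 of 1189 peaks, or 9.42%, bordered one. On 2L, 55 deserts took up 40.5% and 104 peaks (8.73%) bordered one, and on 3R the values were 65 deserts, 37.6% and 126 peaks (7.91%). On 3L, 52 deserts took up 33.4% of the span, with 96 border peaks (7.21%). On 2R, 42 deserts took up 29.8%, with 77 border peaks (5.77%). The median desert was 158139 bp long on X and 128044 bp on 2R, with the other 3 arms between 141445 and 147399 bp. Chromosome 4, the small dot chromosome, had 0 deserts among its 77 peaks, and its longest gap was 94018 bp. Its span was 1.29 Mb, and the arms together had 2.27 deserts per Mb. Whether its short span bears on the absence of deserts was not tested.

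Deserts lay along whole arms and were most extended near the centromere on 3L and X. Each arm was divided into 10 segments of equal length, counted from the telomere. Of the 50 segments of the 5 large arms 0 were free of desert sequence, 10 were at least 50% desert and 2 were under 10%. The segment nearest the centromere was 81.2% desert on 3L, against 28.1% over the rest of that arm, and 80.6% on X against 41.0%. On 2R it was 50.2% against 27.5%. On 3R and 2L the centromere end did not stand out, at 41.0% against 37.2% and at 34.9% against 41.1%. Over the 5 arms together the last segment was 57.2% desert, and the others lay between 26.9% at the telomere and 39.7%. The mappable part of these stretches was not examined, so whether it moves with the absence of peaks near the centromere was not tested.

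**Figure D1:**
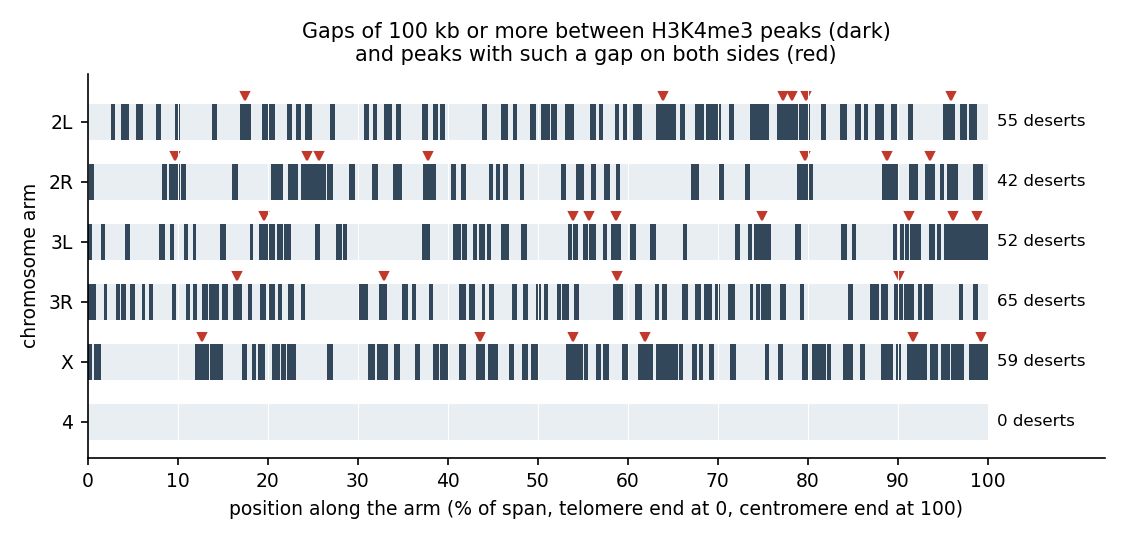
Map of the 6 arms, each drawn from its telomere end (0) to its centromere end (100) as a percentage of the distance between its outermost peaks. Dark blocks are the 273 deserts and red triangles the 31 peaks with a desert on both sides. Blocks crowd at the centromere end of 3L and X, and chromosome 4, with a span of 1.29 Mb, has none.

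The segment with the most desert lay inside the arm on 2L, 2R and 3R. On 2L it was the stretch from 16078036 to 18372423, 63.6% desert, and its neighbour toward the telomere had 61.4%. On 2R it was the stretch from 14805011 to 16917381, with 62.9%, while the stretch from 6355535 to 8467904 had 9.74%. On 3R the stretch from 22315411 to 25104796 had 54.6%, and its neighbour toward the centromere, from 19526025 to 22315411, had the lowest value of the arm at 21.7%. On 3L the stretch from 7375092 to 9826022 held 1 desert, 8.25% of its length, and 167 peaks. On X the 10% of the span nearest the telomere had 13.1% desert. All positions are on FlyBase release 5, and no gene is named at any of them, because no annotation of that release was used here.

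The 5 longest deserts lay on 2L, 3R and X, and their border peaks ranged from 252 bp with a score of 8.05 to 1900 bp with 257.97. The longest covered 2L 16902240 to 17382736, or 480497 bp. Its borders were alike, a peak of 1348 bp scoring 142.60 at 16900892 to 16902239 and one of 1386 bp scoring 139.52 at 17382737 to 17384122. The next, on 2L from 15771064 to 16168515 (397452 bp), lay between a peak of 635 bp scoring 25.53 and one of 314 bp scoring 10.85. Another, on 3R from 23813984 to 24151311 (337328 bp), also had weak borders, of 317 bp scoring 15.22 and of 572 bp scoring 27.27.

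The 2 remaining ones were both near the centromere end of X. The one from 21501163 to 21834744 (333582 bp) ran from a peak of 1900 bp scoring 257.97 to one of 362 bp scoring 27.61. The one from 20566392 to 20898714 (332323 bp) lay between peaks of 252 and 577 bp that scored 8.05 and 17.82. On 3L the longest desert, from 22400942 to 22707893 (306952 bp), had strong borders on both ends. These were 2774 bp wide with a score of 290.93 and 2609 bp wide with a score of 412.28. On 2R the longest, from 2109859 to 2389600 (279742 bp), had borders of 1244 and 1084 bp scoring 65.52 and 37.06. Among these 7 deserts, then, the border could be a peak above the arm median score of 106.60 or one in the lowest 25% of arm peaks (17.82 or less).

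Desert-border peaks had a median width close to that of other peaks and closer quartiles. Their median width was 1225 bp (95% interval 1125 to 1338 bp) and that of the other 6200 arm peaks 1270 bp (1231 to 1311 bp). Intervals of medians come from binomial order statistics and those of shares are exact binomial. Both treat peaks as independent and cover counting error only. The quartiles were 648 and 2005 bp for border peaks and 546 and 2266 bp for the others, so the middle of the distribution was tighter at the desert edge. Other peaks with a gap of 10 to under 100 kb had quartiles of 582 and 2032 bp. The tighter middle was therefore largely shared by peaks beside shorter gaps. The widest border peak had 8921 bp, while the widest of the others had 17881 bp.

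Broad H3K4me3 domains were less frequent at the edge of a desert. Peaks of 4000 bp or wider made up 8.09% of all arm peaks, 4.85% of border peaks (25 of 515, interval 3.17 to 7.08%) and 8.35% of the others (518 of 6200, 7.68 to 9.07%). The share was lower at borders on 2L, 2R, 3R and X and not on 3L, where it was 8.33% at borders and 7.94% elsewhere. On 2L it was 3.85% against 10.7%, on 3R 3.97% against 9.27%, on X 2.68% against 4.46% and on 2R 6.49% against 9.55%. Each of these arm values rests on between 3 and 8 broad border peaks, and on each of these arms the intervals of border and other peaks overlap.

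Narrow peaks were also a smaller share at borders, but there the intervals overlap. Peaks under 500 bp were 22.5% of all arm peaks, 19.2% of border peaks (99 of 515, 15.9 to 22.9%) and 22.7% of the others (21.7 to 23.8%). Peaks of 500 to under 1000 bp made up 20.8% of border peaks (17.4 to 24.5%) and 18.4% of the others (17.4 to 19.4%). For peaks of 1000 to under 4000 bp the shares were 55.1% (50.7 to 59.5%) and 50.5% (49.3 to 51.8%). In both classes the intervals overlap. Other peaks with a gap of 10 to under 100 kb lay in between, with 21.1% under 500 bp, 19.2% at 500 to under 1000 bp and 53.6% at 1000 to under 4000 bp.

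Low scores, too, were a smaller share among border peaks. The score is the authors' value per peak on a scale that the sources used here do not state, so sizes of differences depend on that scale. The median was 92.3 for border peaks (75.6 to 110) and 109 for the others (103 to 115), and the intervals overlap. Quartiles were 26.3 and 225 at borders and 17.4 and 243 elsewhere. Peaks in the lowest 25% by score, which with ties are 25.1% of all arm peaks, were 19.2% of border peaks (15.9 to 22.9%) and 25.6% of the others (24.5 to 26.7%). Peaks in the top 25% were 21.6% of border peaks (18.1 to 25.4%) and 25.3% of the others (24.2 to 26.4%), and these intervals overlap. The sign of the difference in median score turned when a desert was set at 150 kb or more, where border peaks exceeded the others by 10.3. With deserts of 50 kb or more the difference was -16.4, and with 200 kb or more it was -13.5.

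**Figure D2:**
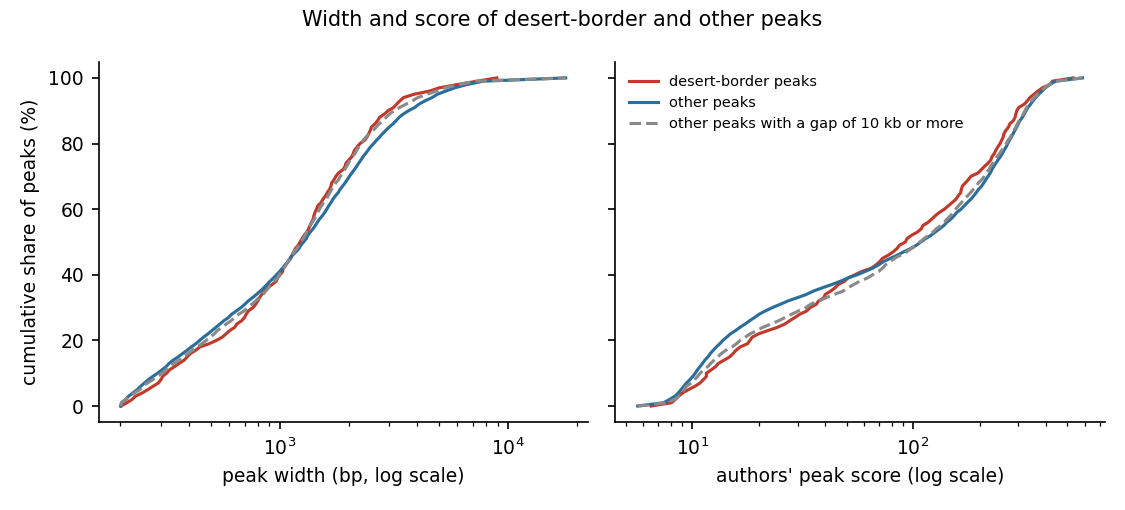
Cumulative share of peaks (percent) by width in bp (left) and by the authors' score (right), both on log axes, for 515 desert-border peaks, the other 6200 arm peaks and the 2704 of these with a gap of 10 kb or more. The red curve lies below the blue one at the low end and above it at the high end.

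Within classes of width the scores of border and other peaks differed in opposite directions. Among peaks of 1000 to under 4000 bp the median was 172 at borders (159 to 197, n = 284) and 202 elsewhere (196 to 207, n = 3134). Among those of 500 to under 1000 bp the order was the opposite, with 38.2 at borders (31.9 to 44.3, n = 107) and 29.6 elsewhere (27.1 to 31.9, n = 1139). Only the narrow peaks, with medians of 11.6 and 10.9, and the broad ones, with 295 and 292, were close. Other peaks with a gap of 10 to under 100 kb scored 191 (183 to 199) at 1000 to under 4000 bp. At 500 to under 1000 bp they scored 37.4 (34.2 to 43.1). Both intervals overlap those of border peaks, so neither difference was particular to desert borders.

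Peaks beside shorter gaps lay between border peaks and densely spaced ones in their share of broad peaks, while their median score was near that of all other peaks. The 2704 other peaks with a gap of at least 10 kb but under 100 kb were 1234 bp wide at the median and scored 107 (98.6 to 117). Of them 6.10% were 4000 bp or wider (5.23 to 7.07%), an interval that overlaps that of border peaks. The 3496 peaks with both neighbours under 10 kb away had 10.1% broad peaks (9.12 to 11.1%). In this group 28.7% of scores were in the lowest 25%, with 24.9% where the larger gap was under 1 kb and 31.6% at 1 to under 10 kb. The share was 21.6% (20.1 to 23.2%) beside gaps of 10 to under 100 kb and 19.2% (15.9 to 22.9%) at desert borders. These intervals overlap, so the smaller share of low scores was not particular to desert borders.

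Every arm peak was also grouped by the larger of its gaps. Peaks whose larger gap was under 1 kb were 4000 bp or wider in 207 of 1532 cases, or 13.5% (11.8 to 15.3%). The share was 7.43% where the larger gap was 1 to under 10 kb, 6.05% at 10 to under 50 kb, and 6.28% at 50 to under 100 kb. It was 4.22% (2.48 to 6.67%) at 100 to under 200 kb and 7.14% (3.13 to 13.6%) at 200 kb or more. The last group has 112 peaks, 8 of them broad, and its interval holds the shares of all the other groups. Median scores were 157, 72.8, 111, 96.6, 92.3 and 93.2 from the shortest to the longest gaps. They followed no steady course, and the lowest was at 1 to under 10 kb.

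**Figure D3:**
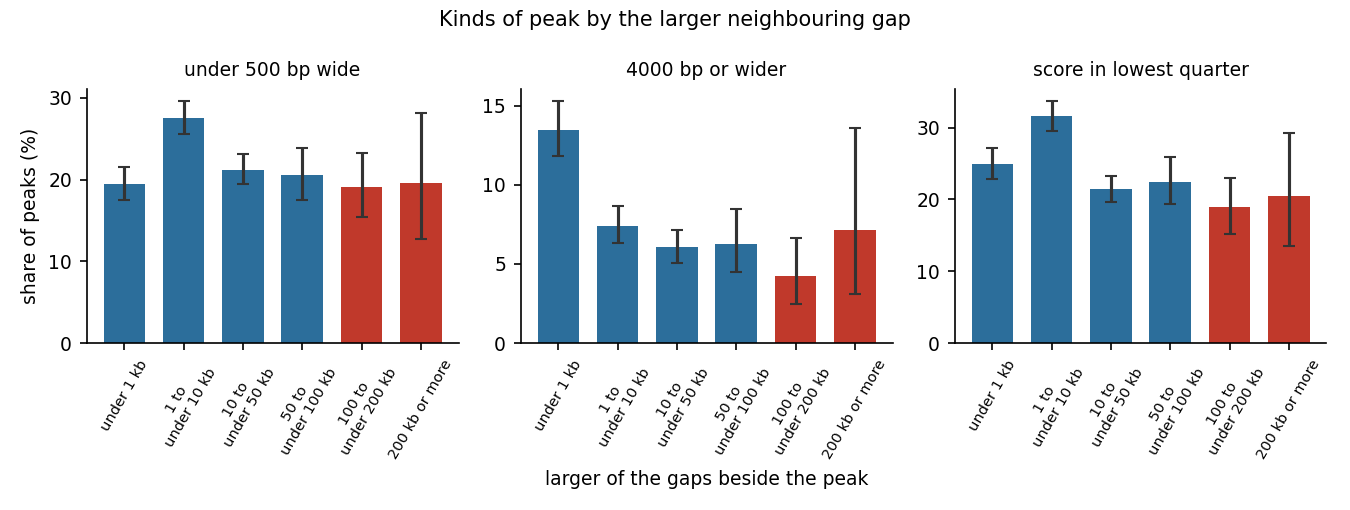
Share of peaks (percent) under 500 bp wide, 4000 bp or wider, and with a score in the lowest 25%, by the larger gap beside the peak. Blue bars are peaks with gaps under 100 kb, red bars desert-border peaks, and lines are exact binomial 95% intervals. Broad peaks are most frequent where the larger gap is under 1 kb.

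The gaps nearest the limit had borders of mixed kinds on either side of it. The shortest desert, 100317 bp on 2L from 19795886 to 19896202, lay between a peak of 3819 bp scoring 201.81 and one of 766 bp scoring 18.07. The next, 100836 bp on 2R from 11461362 to 11562197, lay between peaks of 2183 and 1182 bp scoring 157.19 and 63.33. Just under the limit, a gap of 99947 bp on 2L from 9331414 to 9431360 had borders of 559 and 1973 bp scoring 24.56 and 275.52. Another, of 99629 bp on 3R from 16461693 to 16561321, had borders of 603 and 1482 bp scoring 170.67 and 85.35. The 82 peaks whose larger gap was 100 to under 110 kb had medians of 1238 bp for width and 76.5 for score, and 11 were under 500 bp and 4 of 4000 bp or wider. The 76 peaks at 90 to under 100 kb had 1310 bp and 103, and 19 and 8 of them were in these classes.

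The strongest border peaks reached the upper end of the score range of the list. The highest was at 2L 22427077 to 22429424, 2348 bp wide with a score of 531.09, beside a desert of 175567 bp. It was followed by 2L 10200016 to 10204397, 4382 bp with a score of 448.69 and a neighbour only 89 bp away on its other side. Next came 3R 908148 to 912853, 4706 bp with a score of 442.36. All 3 scores lie in the top 25% of arm peaks, which begins at 240.44.

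The lowest-scoring border peaks were narrow. They were at 2L 21049616 to 21049878 (263 bp, score 6.52), X 6114085 to 6114512 (428 bp, 7.74) and 2L 15729395 to 15729595 (201 bp, 7.91). Each had another peak close by on the side away from the desert, at 439, 2936 and 721 bp.

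The widest border peaks included the pair that encloses a single desert. On 3L a desert of 102774 bp separated a peak of 8236 bp (2257667 to 2265902, score 289.76) from the widest border peak of all, 8921 bp (2368677 to 2377597, score 308.45). The second widest, 8565 bp with a score of 354.08, was at 3R 9086164 to 9094728 beside a desert of 206752 bp. Its other neighbour was 51 bp away.

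The 2 borders of a desert were little alike in score. Across 273 deserts Spearman's rho between the scores of the left and right border was 0.02, and between their widths 0.09. The pairs are not independent, since 31 peaks enter 2 pairs each, and width and score come from the same call. Both borders lay above the arm median score in 63 deserts, 1 border was in the lowest 25% by score in 94, and both were in 6. The border on the centromere side had a median score of 93.1 and the one on the telomere side 86.1, and the former was the higher one in 139 of 273 deserts (50.9%). Between the length of a desert and the sum of its 2 border scores rho was 0.12.

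Away from the desert, border peaks had sparser company than the average peak. For 481 of the 484 peaks with a desert on 1 side the gap on the other side is known, and the remaining 3 are the first or last peak of an arm. Its median was 3001 bp (1827 to 5069 bp), against 1178 bp (1053 to 1368 bp) over all 6436 arm gaps under 100 kb. The other gap was under 1 kb in 205 cases, or 42.6% (38.2 to 47.2%), against 48.2% of all these gaps (47.0 to 49.5%). It was 10 kb or more in 181 cases, or 37.6% (33.3 to 42.1%), against 26.5% (25.4 to 27.6%), and 50 kb or more in 49, or 10.2% against 5.64%.

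**Figure D4:**
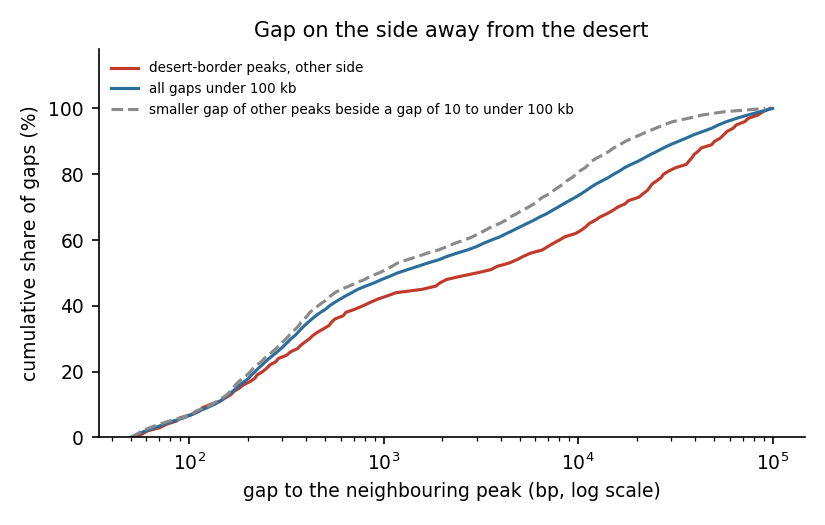
Cumulative share of gaps (percent) by length in bp on a log axis: the side away from the desert for 481 border peaks, all 6436 arm gaps under 100 kb, and the smaller gap of other peaks whose larger gap is 10 to under 100 kb. The smaller gap of the last set is capped by its larger one. The red curve runs below the blue one over most of the range.

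Peak density on that side was lower in each 10 kb step up to 100 kb than over all sides not facing a desert. The first 10 kb held 1.39 peaks on average, against 1.7 over all 12866 sides of arm peaks that do not face a desert. From 10 to 20 kb the values were 0.806 and 1.03, and from 20 to 30 kb 0.795 and 0.861. They came nearest to each other from 40 to 50 kb, with 0.707 and 0.726, and were 0.556 and 0.653 from 90 to 100 kb. Other peaks with a gap of 10 to under 100 kb had 1.71 peaks in the first 10 kb on the side away from that gap. From 80 to 90 kb they had fewer than border peaks, with 0.617 against 0.634. Sides of 1 stretch overlap, so these steps are not independent.

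The peak next in line after the border had a higher median score and a similar width. For the 481 peaks with a known neighbour, the border had a median score of 93.4 and its neighbour 117, with widths of 1238 and 1269 bp. The neighbour was the higher one in 248 pairs, or 51.6% (47.0 to 56.1%). Other peaks beside a gap of 10 kb or more showed the same step, from 107 to 131, with the neighbour higher in 52.1% (50.2 to 54.0%). Counted inward from each desert edge up to the next desert, the median score was 89.8 for the first peak (75.2 to 108, 546 edges) and 117 for each of the next 2 (100 to 139 and 97.8 to 141). It was between 76.3 and 119 for the 4th to 10th. The share of peaks of 4000 bp or wider was 4.95% for the first peak and between 5.88 and 8.66% for the next 9, with overlapping intervals. Past the first peak the medians followed no steady course.

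Members with a close neighbour had a higher median score than those standing apart, as did other peaks beside a gap of 10 kb or more. The 205 border peaks with a neighbour under 1 kb away had a median score of 110 (78.1 to 152), and 5.85% were broad. The 181 with the next peak at 10 kb or more had 72.0 (48.7 to 93.9) and 4.42%. The 95 in between had 104 (71.2 to 172), and 9.47% of them were under 500 bp wide, against 23.4% and 19.3% in the other groups. The median scores of the other peaks beside a gap of 10 kb or more were 127, 108 and 73.5 with the nearest neighbour under 1 kb, 1 to under 10 kb and 10 kb or more away.

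A total of 31 of the 6715 arm peaks, 6.02% of the members, had a desert on both sides. Deserts made up 4.07% of all arm gaps, which is a share of gaps and not of peaks. The 31 peaks lay on 3L (8 peaks), 2R (7), 2L and X (6 each) and 3R (4). Their median score was 57.9 (28.7 to 130) and their median width 1154 bp (702 to 2141 bp), and 2 of 31 were in the top 25% of arm peaks by score, or 6.45% (0.791 to 21.4%). The 484 members with a desert on 1 side had a median score of 93.6 (77.1 to 112) and 22.5% in the top 25% (18.9 to 26.5%). The stretch from the far end of one desert to the far end of the other measured 231082 to 511919 bp, with a median of 363401 bp.

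The 10 highest-scoring lone peaks were between 1424 and 5507 bp wide. The highest was at 3L 22398168 to 22400941, 2774 bp with a score of 290.93, between gaps of 114757 and 306952 bp. It is also the left border of the longest desert of 3L. The second, 2R 15714084 to 15719590, was 5507 bp wide with a score of 274.00. Its right-hand neighbour at 15999048 to 16003848, across 279457 bp, was 4801 bp wide with a score of 204.87 and also had a desert on both sides. These were the 2 broad peaks of the set, and gaps of 153630, 279457 and 127809 bp followed each other around them.

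Further lone peaks had scores between 130 and 227. At 2L 18320115 to 18323177 the width was 3063 bp and the score 226.18, and at 2R 4308432 to 4310572 they were 2141 bp and 222.16. At 3L 4825056 to 4827380, with gaps of 131273 and 299885 bp, they were 2325 bp and 198.17. At 2L 14687840 to 14689263 a peak of 1424 bp scoring 179.26 stood alone in 511919 bp, the longest such stretch, with gaps of 194081 and 316414 bp. The next were 3R 11491952 to 11495097 (3146 bp, 159.69), 2L 4031356 to 4033855 (2500 bp, 136.37) and 3L 13221778 to 13223807 (2030 bp, 130.27).

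The other 21 lone peaks scored from 8.05 to 126.82 and were 213 to 2616 bp wide. All 7 lone peaks under 500 bp were among them. The lowest, at X 20566140 to 20566391, was 252 bp wide with a score of 8.05 and parted gaps of 170134 and 332323 bp. On 2L another adjacent pair, of 680 bp scoring 29.75 and of 789 bp scoring 106.70, divided 3 deserts of 160629, 210930 and 171483 bp.

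Between consecutive deserts of an arm lay 268 islands of peaks, 31 of them the lone peaks above. A further 39 islands held 2 to 5 peaks, 99 held 6 to 20 and 99 held more than 20. The median island had 14 peaks, and the median length was 157928 bp. The 99 islands of more than 20 peaks contained 5169 of the 6522 island peaks, or 79.3%. The largest, on X from 355100 to 2683913, ran for 2328814 bp with 186 peaks. It was followed by 3R 19494214 to 21163670 with 177 peaks and 2R 2498014 to 4128271 with 151.

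Lone peaks had a lower median score than the peaks of larger islands, with intervals that overlap. The median score was 57.9 for lone peaks and 110 (69.1 to 155) for the 142 peaks in islands of 2 to 5, 106 in islands of 6 to 20 and 106 in larger ones. Peaks in the top 25% by score were 6.45%, 26.8%, 23.7% and 25.1% in the same order. The share of broad peaks was 6.45% (0.791 to 21.4%) for lone peaks, 4.23% (1.57 to 8.97%) in islands of 2 to 5, 5.93% (4.65 to 7.44%) in those of 6 to 20 and 8.86% (8.10 to 9.67%) in those of more than 20. At least 1 broad peak was present in 5 of 39, 47 of 99 and 90 of 99 islands of these sizes, where larger islands have more peaks among which one can be broad.

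**Figure D5:**
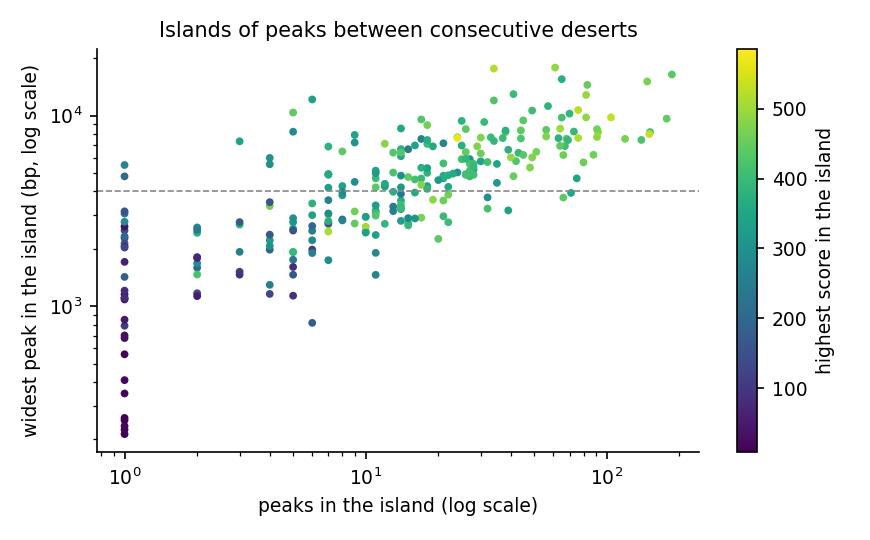
Each point is 1 of 268 islands between consecutive deserts, by its number of peaks and the width in bp of its widest peak, both on log axes, coloured by its highest score. The dashed line marks 4000 bp. The widest peak of an island is a maximum and grows with the number of peaks; 90 of 99 islands of more than 20 peaks reach the line.

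Some deserts followed each other closely, while the median island between deserts was 157928 bp long. Where deserts with less than 50 kb between them are joined into tracts, a limit chosen after the values were seen, 116 of 273 deserts, or 42.5%, fell into 49 tracts of 2 or more. The other 157 of the 206 tracts were single deserts. Whether deserts lie closer together than gaps placed at random was not tested. A total of 14 tracts were 500 kb or longer, 6 on X, 3 on 2L, 2 each on 2R and 3L and 1 on 3R. The longest, at the centromere end of 3L from 23333437 to 24530391, held 5 deserts and 6 peaks in 1196955 bp. On 2L a tract of 850540 bp from 17591085 to 18441624 held 5 deserts and 8 peaks, and on 2R one of 739088 bp from 15392570 to 16131657 held 4 deserts and 5 peaks. Both lie inside the arm, as do the X tract from 2683914 to 3376930 (693017 bp, 6 peaks) and that from 14160160 to 14843757 (683598 bp, 8 peaks). The X tract from 2683914 begins where the largest island of the list ends.

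Border peaks near the centromere had a higher median score than those elsewhere, with overlapping intervals. The 67 members in the 10% segments nearest the centromere of the 5 large arms had a median score of 145 (64.8 to 227) and a width of 1323 bp. The 448 other members had 86.5 (72.3 to 108) and 1205 bp. The 398 other peaks of the same segments had a median score of 151 (126 to 183). Of the 67 members, 1 was 4000 bp or wider, against 24 of the 448 and 37 of the 398. Among all arm peaks the share was 8.09%.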

How the data were processed

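Peaks of H3K4me3 ChIP-seq were taken from 1 deposited list of the whole series. The submitters' processing notes name BWA, MACS2, CASAVA 1.7.0.3 and CASAVA 1.7.0.2 and the build BDGP5, without order or settings. Per the file headers the coordinates follow FlyBase release 5, with MACS as source. The deposited score per peak is the authors' own, of unknown scale. No source used here says how ChIP and input libraries were pooled, so depth is unknown and no replicate can be compared.

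Width was end minus start plus 1, and a gap was the number of bases between neighbouring peaks of an arm. Stretches beyond the first and last peak of an arm were not counted. Medians were given 95% intervals from binomial order statistics and shares exact Clopper-Pearson intervals. The regions named were the 5 longest deserts and the longest of each arm, the 10 highest peaks with deserts on both sides, the 3 highest, lowest and widest members, the 2 gaps on each side of the limit and the 10% segment of each arm with the most desert. Others, such as tracts, islands and segments with little desert, were chosen after their values were seen. The members, lists and limits were chosen with earlier results of these data known. Alternatives were other desert lengths, lists without low-scoring or narrow peaks, merging, the large autosomal arms alone and other comparison sets. Python 3.11.15 with numpy 2.4.6, scipy 1.17.1, pandas 2.3.3 and matplotlib 3.10.9 was used, and the gap search was tested on simulated data.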

Additional observations from a re-analysis of the deposited data

How the results depend on the processing

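No paired analysis was possible because no column names a replicate, and none could be left out. Of 75 alternatives 44 stayed within the limits set for them (1.5 times for counts, the 95% interval for medians), 31 moved and 0 were counted as reversed; the 2 differences in medians, whose main intervals include 0, could not be counted so. With deserts of 50, 150 and 200 kb or more the list had 636, 127 and 57 deserts, 1152, 242 and 112 border peaks, 57.9%, 22.1% and 12.1% of the span in deserts and 120, 12 and 2 peaks with deserts on both sides, by construction. The other gap had a median of 1483 bp at 50 kb and 5678 bp at 200 kb, and the median score was 116 at 150 kb, where the difference from other peaks was 10.3 in place of -16.2. At 50 kb the score difference was -16.4 and at 200 kb -13.5. Without the lowest 25% by score, without the lowest 50%, with peaks of 500 bp or wider only and after merging peaks closer than 1000 bp, the median width of border peaks was 1538, 2010, 1533 and 1823 bp. Their median score was 152, 230, 152 and 153, and the other gap 5852, 5545, 5340 and 14476 bp. The lists without low scores have higher scores by construction. Merging keeps the highest score of the joined peaks and leaves no gap under 1000 bp. The difference in median width, -44.5 bp as reported, was -161, -220 and -305 bp without the lowest 25%, without the lowest 50% and after merging. With deserts of 50, 150 and 200 kb or more it was -59.5, 53.5 and -136 bp. The number of deserts stayed between 214 and 339 in the lists not cut by desert length. Of the 297 deserts without the lowest 25% of peaks, 259 held exactly 1 of the deserts described, 7 held 2 or more and 31 held none. Places without a peak were not detected at the authors' threshold, and mappability was not examined.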

Other observations

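Gaps of 100 kb or more also occurred on sequences outside the 6 arms, where they depend on how pieces were assembled. On the heterochromatic scaffold 2RHet 7 of the gaps between its 15 peaks were that long, the longest 862896 bp, and 10 peaks with a median score of 66.35 bordered them. On 3LHet there were 4 such gaps between 16 peaks, up to 793396 bp, and the 7 border peaks had a median score of 132.87. Uextra, a collection of pieces placed on no chromosome, had 81 such gaps among 631 peaks. Its 149 border peaks had a median width of 695 bp.

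Leaving out the lowest 25% of arm peaks by score joined deserts at X 20396006 to 20901177, giving 505172 bp, the longest gap of that list. The lone peak at 20566140 to 20566391, with a score of 8.05, lies inside it. Without the lowest 50% the longest gap was 3L 18103766 to 18665263, with 561498 bp.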
